A study of Mus musculus with 8 samples.

Results

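Cytosolic ribosomal proteins are the protein parts of the ribosome in the cytoplasm, and the 81 genes described here carry their names. They were chosen by name: a gene was a member when its symbol was Rps or Rpl followed by a number, with or without a final a, x or l, or was Rplp0, Rplp1, Rplp2 or Rpsa. This gave 81 of the 21878 genes in the count table, of which 50 are named for the large subunit (Rpl) and 31 for the small subunit (Rps). One of the 50, Rpl32l, is a processed pseudogene in GENCODE M21 and is not annotated as coding for a protein. The rule itself uses no measured value, but it was chosen with earlier results of these data known. A total of 77 members had 10 or more counts in at least 4 of the 8 samples and were tested together with the other genes past this limit, 11718 in all.

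The samples were peripheral blood of female wild-type C57BL/6 mice aged 6-8 weeks. In the stress group (n = 4), each mouse was held for 6 hours in a ventilated tube, and in the control group (n = 4) littermates stayed in their normal cage. Both groups were without food and water during this time, so a change common to both groups is not seen in the comparison. RNA of the whole blood was sequenced in bulk, so that fewer cells of a type and less RNA per cell cannot be told apart. The labels name the samples of a group as replicates, and the p-values measure the spread between these samples.

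A ribosome holds one copy of nearly every ribosomal protein beside its ribosomal RNAs, with the acidic P stalk proteins as an exception. Many ribosomal protein mRNAs begin with a run of pyrimidines, the 5′ terminal oligopyrimidine (TOP) motif, through which mTORC1 and the RNA-binding protein Larp1 control their translation. In blood, maturing red cells lose their ribosomes in the reticulocyte stage, and platelets keep a small store of ribosomes and mRNA from the megakaryocyte. Mutations in ribosomal protein genes cause Diamond-Blackfan anaemia, in which the formation of red cells fails.

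The start sites are shown first, because the pyrimidine run is the feature that ribosomal protein mRNAs are best known to share. RefSeq (GRCm38.p6) lists a start for 61 of the 81 members. Each line below holds 30 bases, 15 before the listed start and 15 from it, with the pyrimidine run that begins at the start in capitals. The runs of Rplp2 and Rpl38 are shown as those of members with large estimated fold changes, Rps6 and Rpl15 as members with long runs, and Rpl39 and Rpl41 as members with large estimates whose listed start holds no run.
Rplp2 (chr7:141447636-141447665, plus strand): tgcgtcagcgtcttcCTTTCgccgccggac
Rpl38 (chr11:114668565-114668594, plus strand): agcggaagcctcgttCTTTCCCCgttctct
Rps6 (chr4:86857353-86857382, minus strand): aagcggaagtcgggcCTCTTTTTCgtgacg
Rpl15 (chr14:18270972-18271001, minus strand): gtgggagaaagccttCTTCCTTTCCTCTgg
Rpl39 (chrX:37085208-37085237, minus strand): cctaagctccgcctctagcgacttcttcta
Rpl41 (chr10:128549154-128549183, minus strand): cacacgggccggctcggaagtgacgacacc

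A C at the listed start followed by pyrimidines, 5 or more bases in all, was found in 14 of the 61 members. The 14 include the processed pseudogene Rpl32l, which was not tested. Per listed start this was 19.2% of the members' starts, against 2.51% of the 32851 starts of all genes. The motif CCGGAAG, searched on both strands from 250 bases before to 50 bases after the start, was in 35.6% of the members' windows and 8.86% of all windows. GATGGCG was in 9.59% against 3.49%, and TATAAA in 9.59% against 13.6%. A listed start can lie some bases away from the base at which transcription begins, so that a run missing at the listed base says only that these letters are not there.

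The depth of the samples differed between the groups. The total was 31471145 to 39014775 counts in the control samples and 25978683 to 29655725 in the stress samples. Haemoglobin genes held 58.5% ± 5.17 of the control counts and 68.4% ± 6.06 of the stress counts (SD, n = 4), which left 6352711 counts outside them in stress replicate 3, the fewest of all samples. For the tested members, the median count was 5736 in the control samples and 3158 in the stress samples, and single counts ran from 51 to 57549. Levels below are in CPM, counts scaled to a common library size, here the TMM-scaled one. TMM is a normalization in which most genes are taken as unchanged between samples.

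The summed members took a smaller part of all counts in the stress group, and an overlapping part once haemoglobin was set aside. Of all counts they took 1.52%, 1.93%, 2.51% and 1.54% in control replicates 1 to 4 and 1.16%, 1.27%, 1.22% and 1.47% in stress replicates 1 to 4. Every stress sample was below every control sample on this scale. Of the counts outside haemoglobin genes, the members took 3.91%, 4.50%, 5.22% and 4.25% in the control samples and 3.48%, 4.28%, 4.98% and 3.80% in the stress samples, and the groups overlapped. After TMM scaling their sum was 13875 ± 1074 CPM for control and 17330 ± 4752 CPM for stress (SD, n = 4), with the highest value, 23989 CPM, in stress replicate 3. The direction of the summed members thus depended on what the counts were divided by.

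**Figure D1:**
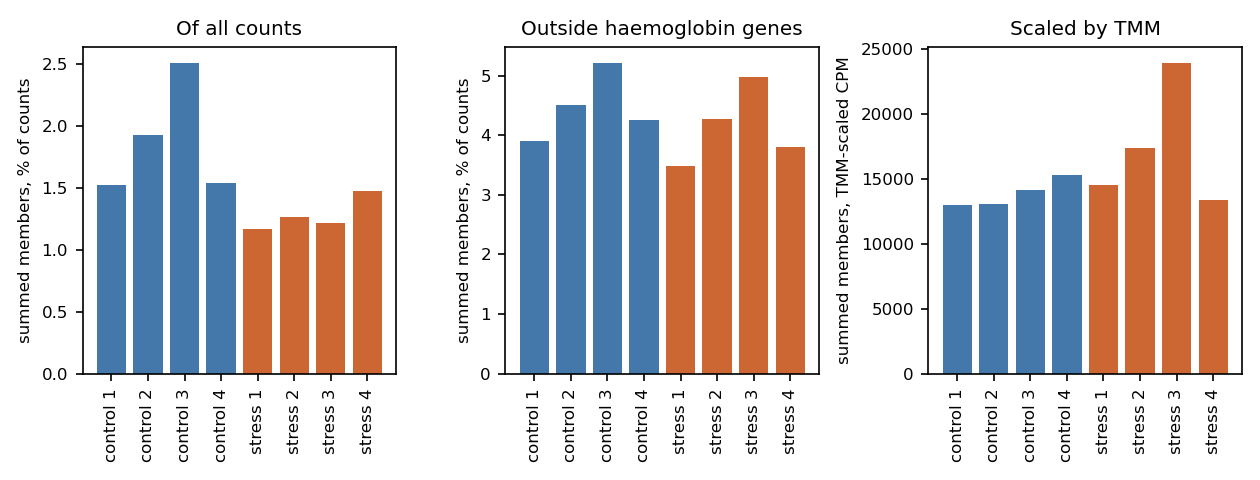
Summed counts of the members in each of the 8 samples, as percent of all counts (left), as percent of the counts outside haemoglobin genes (middle) and in TMM-scaled CPM (right), with control samples in blue and stress samples in orange. The stress bars are all below the control bars on the left, the groups overlap in the middle, and stress replicate 3 stands at 23989 CPM on the right.

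After TMM scaling, most members were a little higher in the stress group and few passed the test. Of the 77 tested members, 70 had a higher estimate in the stress group, which is 90.9% against 47.1% of all tested genes. The members are short, with a median coding length of 453 bases against 1383 for the other tested genes. Short genes outside the family were mostly higher too. In the class of over 300 and up to 600 bases, 44 of 46 members and 889 of 1212 other genes had a higher estimate. The median log2 fold change of the members was 0.23, beside -0.02 over all tested genes. In edgeR's quasi-likelihood test with all genes in the adjustment, 3 members were higher at an adjusted p under 0.05. They were Rps29, Rplp2 and Rpl39, where 10.4% of all tested genes were called higher. A single member was lower, Rps27, where 3.69% of all tested genes were called lower. No member passed the thresholds of the study, a log2 fold change above 1 in size with an adjusted p below 0.01, which 1.69% of all tested genes passed as higher and 0.0171% as lower. At an unadjusted p below 0.05 there were 18 higher members, against 18.2% of all tested genes, and 20 members in either direction, against 31.2%. DESeq2 called 7 of the 80 members it fitted higher and 1 lower at an adjusted p below 0.05, against 9.57% and 3.89% of its 15930 genes, and Rps29 alone passed the thresholds of the study in it, against 1.93% higher.

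The direction depended on the scaling, and the calls on the scaling and on single samples. With the total count of each sample as the only scaling, 3 of the 77 members and 9.98% of all tested genes had a higher estimate, and the median log2 fold change was -0.63 beside -0.82 over all tested genes. On this scale 34 members and 49.6% of all tested genes were called lower, and 0 members and 0.444% were called higher. Rps27 and Rpl7a passed the study's thresholds as lower in it, where 6.22% of all tested genes did. With the summed members as library size, which asks how each member moved against the others, no member was called higher, 1 was called lower (Rps27), and the median was -0.08 beside -0.28 over all tested genes. Of all tested genes, 0.282% were called higher and 0.0427% lower in this fit. At an unadjusted p below 0.05, 5 members were higher in it, against 6.96% of all tested genes. DESeq2 on the same library sizes called Rps29 higher and no member lower, so that the call of Rps27 was lost. The share of all genes that DESeq2 called on these library sizes is not reported here. Stress replicate 3 had the highest value among the stress samples for 74 of the 77 members, against 30.6% of all tested genes. Without it the median log2 fold change of the members was 0.07, and Rps29 alone was called, at a log2 fold change of 0.74 with an adjusted p of 0.0268 (edgeR). Its counts outside haemoglobin were the fewest and its erythroid marker sum the highest of the 8 samples, and their part in the result was not tested.

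Rps29, a zinc-binding protein of the small subunit and a Diamond-Blackfan anaemia gene, lies at chromosome 12, 69157722 to 69159186 on the minus strand (GRCm38), and has 3 exons. It was measured at 35.0, 28.7, 33.2 and 41.8 CPM in control replicates 1 to 4 and at 52.5, 74.4, 126 and 45.3 CPM in stress replicates 1 to 4. Every stress sample was above every control sample. The log2 fold change was 1.10 (SE 0.27, edgeR, adjusted p = 0.0202). Only Rps29 and Rpl37a among the 77 members had no overlap between the groups with stress above, where 11.1% of all tested genes had none, and no member lay wholly below, where 9.87% of all tested genes did. Leaving out single samples moved the adjusted p of Rps29 between 0.0108 and 0.0662, and it was past 0.05 without control replicate 2, control replicate 3 or stress replicate 2.

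The P stalk is the flexible arm of the large subunit that recruits the translation factors with GTPase activity. It consists of Rplp0, its base, and of Rplp1 and Rplp2, the acidic proteins that form dimers on it. All 3 estimates were above 0, and their median on the log2 scale was 0.67. It was 0.41 without stress replicate 3 and -0.17 with total counts alone. With edgeR, 1 of the 3 genes passed the test, where 10.4% of all tested genes were called higher. All 3 did with DESeq2, where 9.57% of its genes were called higher.

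Rplp2 (chromosome 7, 141447370 to 141451585, plus strand) was at 169, 156, 162 and 255 CPM in the control samples and at 252, 344, 472 and 223 CPM in the stress samples. Control replicate 4 lay above stress replicates 1 and 4, so the groups overlapped by this 1 control sample. The log2 fold change was 0.80 (SE 0.24, edgeR, adjusted p = 0.0417). The call of Rplp2 was kept without control replicate 4 (0.0178), stress replicate 1 (0.0451) or stress replicate 4 (0.0193) and was lost without any of the other 5 samples, with edgeR adjusted p-values up to 0.126. Rplp0 was at 1008, 849, 831 and 1330 CPM in the control samples and at 1391, 1442, 2438 and 1135 CPM in the stress samples. Its log2 fold change was 0.67 with an SE of 0.27 and an adjusted p of 0.111 (edgeR; DESeq2 0.0279). Rplp1 went from 304 ± 40.0 to 470 ± 173 CPM (SD, n = 4), with a log2 fold change of 0.63 and an adjusted p of 0.079 (edgeR; DESeq2 0.0281). In all 3 stalk genes, control replicate 4 was the highest control sample and stress replicate 3 the highest stress sample.

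Rpl39 codes for a very short basic protein that lines the exit tunnel of the large subunit. It lies on chromosome X, 37082520 to 37085402, on the minus strand. Its values were 54.8, 47.3, 52.4 and 75.3 CPM in the control samples and 78.9, 108, 176 and 63.6 CPM in the stress samples. Stress replicate 4 was below control replicate 4, and the other 3 stress samples were above all control samples. The log2 fold change was 0.89 (SE 0.27, edgeR, adjusted p = 0.0488). The call was lost without control replicates 1, 2 or 3 or stress replicates 2 or 3 (adjusted p up to 0.124) and was kept without any of the other 3 samples (0.0167 to 0.0403).

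Rpl38, Rpl41 and Rps12 also had estimates above that of most members but did not pass. Rpl38 is a small protein of the large subunit, needed in mouse embryos for the translation of a subset of Hox mRNAs. It was at 15.7, 7.27, 19.1 and 27.5 CPM in the control samples and at 26.5, 39.3, 70.7 and 20.6 CPM in the stress samples, with a log2 fold change of 1.17 (SE 0.40, edgeR, adjusted p = 0.0741). Its control samples spread more than those of any other member but Rps27, with a coefficient of variation of 48.1%. Rpl41, the shortest member with 75 coding bases, was at 441, 370, 272 and 639 CPM and at 550, 787, 1421 and 511 CPM. Its log2 fold change was 0.92 with an SE of 0.34 and an adjusted p of 0.0911 (edgeR). Rps12, a protein of the small subunit's beak, went from 126 ± 23.2 to 211 ± 84.0 CPM (SD, n = 4), at a log2 fold change of 0.75 (SE 0.24, edgeR, adjusted p = 0.0573; DESeq2 0.0169). Rpl37a, a zinc-binding protein of the large subunit, did not overlap between the groups at 59.4, 40.6, 58.3 and 58.8 CPM against 62.5, 73.6, 117 and 64.5 CPM, and had an adjusted p of 0.0842 (edgeR).

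**Figure D2:**
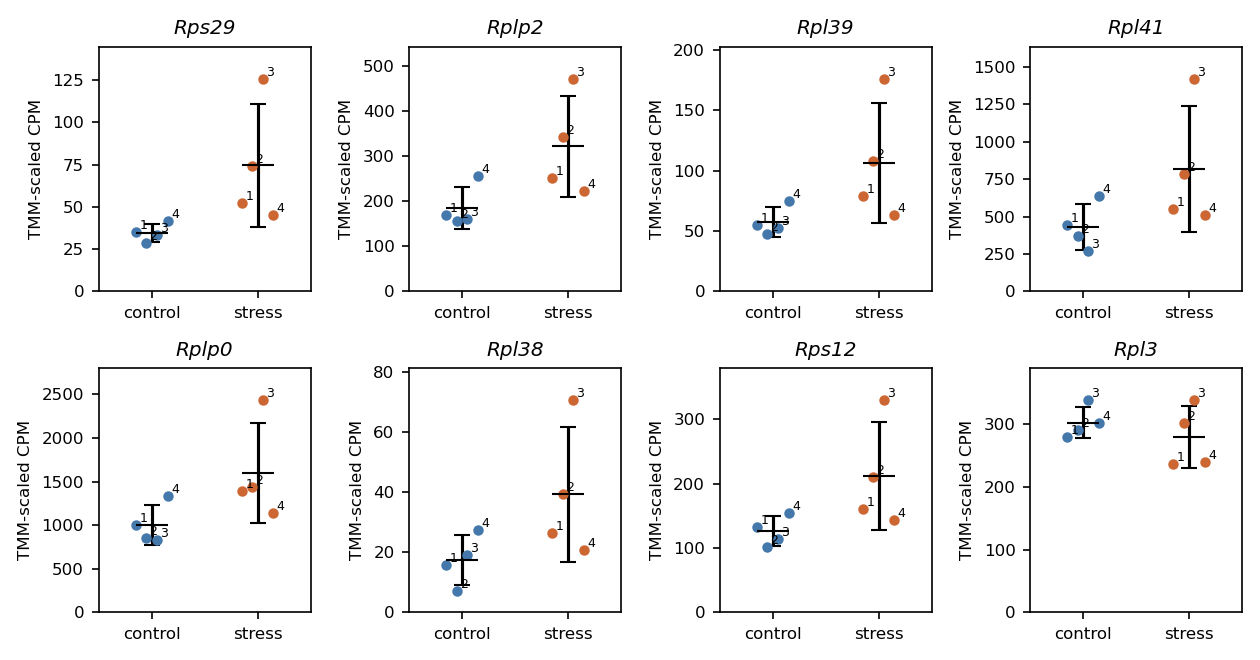
TMM-scaled CPM of 8 members in the 4 control (blue) and 4 stress (orange) samples, each on its own axis from 0, with the replicate number at each point and the mean ± SD as black bars. Stress replicate 3 is the highest point in every panel but that of Rpl3, where it is level with control replicate 3 at 339 CPM.

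Rps27, a zinc-finger protein of the small subunit, was the only member called lower. The gene lies on chromosome 3, 90212522 to 90213651, on the minus strand and has 4 exons. It was at 51.8, 57.8, 46.7 and 8.83 CPM in control replicates 1 to 4 and at 10.7, 14.3, 19.1 and 13.6 CPM in stress replicates 1 to 4. Control replicate 4 lay below all stress samples, and the other 3 control samples lay above all of them. The log2 fold change was -1.53 (SE 0.43, edgeR, adjusted p = 0.0355), and relative to the summed members it was -1.87 (edgeR, adjusted p = 0.032). The call was kept without control replicate 4, at an adjusted p of 0.000517, and was lost without any 1 of the other 7 samples (edgeR, adjusted p 0.0661 to 0.151).

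The table also holds Rps27rt, a gene at chromosome 9, 114982366 to 114982739 (minus strand), with 1 exon. Over the 255 coding bases, stop codon included, 0 differed between Rps27 and Rps27rt in the GENCODE M21 transcripts. The coding sequence is given once, since it is the same for both, and a read that lies within it matches both genes.
Rps27 and Rps27rt, coding sequence: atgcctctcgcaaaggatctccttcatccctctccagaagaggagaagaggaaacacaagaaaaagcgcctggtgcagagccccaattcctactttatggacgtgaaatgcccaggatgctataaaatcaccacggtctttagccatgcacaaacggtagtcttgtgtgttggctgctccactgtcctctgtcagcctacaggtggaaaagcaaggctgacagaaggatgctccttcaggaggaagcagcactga
The windows around the listed starts differ, and both genes begin with a pyrimidine run, in capitals.
Rps27 (chr3:90213634-90213663, minus strand): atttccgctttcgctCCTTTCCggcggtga
Rps27rt (chr9:114982725-114982754, minus strand): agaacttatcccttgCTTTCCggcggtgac

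Rps27rt moved the other way. The counts of Rps27 were 1907, 2987, 3232 and 280 in the control samples and 239, 308, 252 and 426 in the stress samples, and those of Rps27rt were 585, 841, 2207 and 2053 against 1326, 1893, 1462 and 1776. Of the counts of both genes, Rps27 held 76.5%, 78.0%, 59.4% and 12% in the control samples and 15.3%, 14.0%, 14.7% and 19.3% in the stress samples. Control replicate 4 thus stood with the stress samples. The share averaged 56.5% ± 30.8 for control and 15.8% ± 2.40 for stress (SD, n = 4, 2-sided exact permutation test, p = 0.143). The transcript of Rps27 shared 98.6% of its 50-base stretches with Rps27rt.

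With the counts of Rps27rt added to those of Rps27, the lower value was not seen. The sum came to 73.5 ± 4.47 CPM for control and 93.1 ± 28.9 CPM for stress (SD, n = 4). The log2 fold change of the sum was 0.34 (SE 0.18, edgeR, adjusted p = 0.217), and leaving out single samples gave 0.15 to 0.49. The estimate for Rps27rt alone was 1.29 (SE 0.40, edgeR, adjusted p = 0.0528). When the copies Rpl34-ps1 and Rpl37rt were also added to Rpl34 and Rpl37, 71 of the 77 members had a higher estimate, 3 were called higher and 0 lower, beside 10.4% and 3.68% of the 11715 genes then tested. At an unadjusted p below 0.05, 19 members passed in this fit in either direction, against 31.1% of the genes, and Rpl7a was the only lower one. DESeq2 was not run on the summed copies. The summed counts of Rpl34 and of Rpl37 had log2 fold changes of 0.29 and 0.42 (edgeR, adjusted p = 0.289 and 0.21), and their shares of the sums were 76.8% and 92.8% for control against 76.6% and 92.7% for stress. The addition of copies was chosen after the values were seen.

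**Figure D3:**
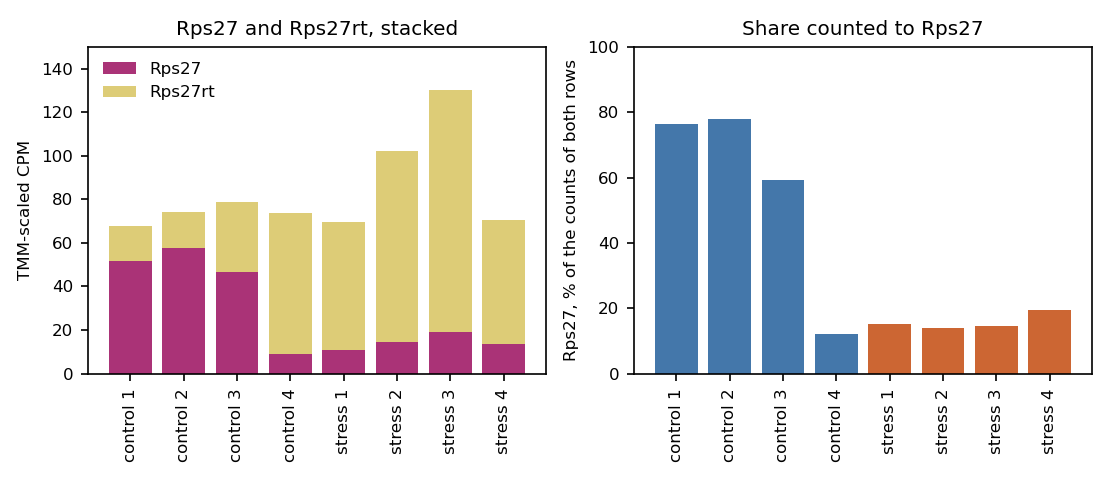
Left, TMM-scaled CPM of Rps27 (purple) and Rps27rt (yellow), stacked for each sample; right, the share of the counts of both genes that was counted to Rps27, in percent, with control in blue and stress in orange. Rps27 held 59.4% to 78.0% in control replicates 1 to 3 and 12% to 19.3% in the other 5 samples, while the stacked sum of control replicate 4 was close to that of the other control samples.

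Sharing of sequence with other genes was common among the members. The median member shared 51.9% of its transcript's 50-base stretches with transcripts of other genes in GENCODE M21. The 42 tested members that shared over 50% had a median change of 0.19 on the log2 scale, and the 35 others had 0.29. Rpl7a, which shared 81.2%, had the second lowest estimate. It was at 29.0, 80.0, 48.0 and 52.7 CPM in the control samples and at 33.9, 36.0, 41.2 and 35.1 CPM in the stress samples, with a log2 fold change of -0.52 (SE 0.23, edgeR, adjusted p = 0.15). Control replicate 1 was below all stress samples, and without it the adjusted p of Rpl7a was 0.0202.

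The class of the shortest members had the largest median estimate. The 10 tested members of at most 300 coding bases had a median log2 fold change of 0.56, with values from -1.53 for Rps27, the lowest of all 77, to 1.17 for Rpl38. The medians were lower in the other classes, with the 46 longer ones of up to 600 bases at 0.23 and the 21 members over 600 bases at 0.13. Among the tested genes that are no members the medians in the same classes were 0.38 (204 genes), 0.21 (1212 genes) and -0.06 (9805 genes). Without stress replicate 3 the medians of the members in these classes were 0.33, 0.08 and 0.02, beside 0.27, 0.16 and -0.04 in the other genes. Across the 77 members, coding length and log2 fold change had a Spearman correlation of -0.46 (Pearson's r with log2 length -0.38), and -0.51 (-0.59) with the copies summed. Across 11221 other tested genes the Spearman correlation was -0.29. These are correlations across genes of the same 8 libraries, given as a description. With the length of the whole annotated transcript in place of the coding length, the Spearman correlation of the members was -0.17.

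Relative to their control means, the short members stood above the long ones in all 4 stress samples and in control replicates 1 and 4. The median log2 level of the members of at most 300 bases, less that of the members over 600 bases, each gene taken relative to its control mean, was 0.14, -0.20, -0.06 and 0.21 in control replicates 1 to 4. It was 0.26, 0.43, 0.67 and 0.43 in stress replicates 1 to 4. The value of stress replicate 1 was close to that of control replicate 4, and the other 3 stress samples were further above. The control values lie around 0 because each gene's control mean was subtracted. The stress values therefore show the length relation above sample by sample and are no separate support for it.

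**Figure D4:**
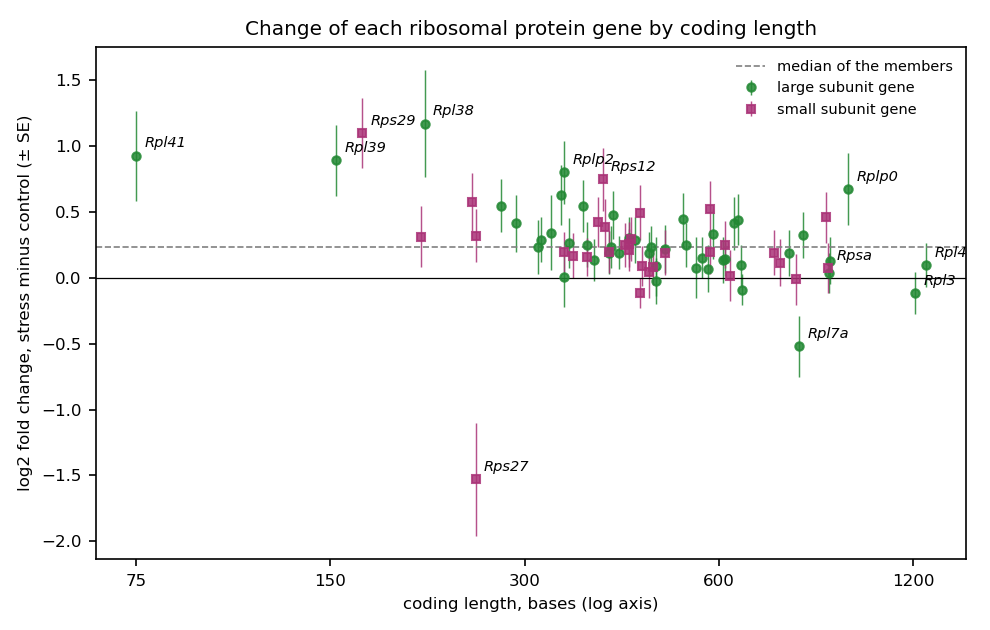
Log2 fold change (stress minus control, ± SE, TMM-scaled edgeR fit) of the 77 tested members against coding length in bases on a log axis, with large subunit genes as green circles and small subunit genes as purple squares. Rpl41, Rpl39, Rps29 and Rpl38 stand between 0.89 and 1.17 at the left, Rps27 stands apart at -1.53 before its copy is added, and the dashed line is the median of 0.23.

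The 2 subunits did not stand apart. The 46 tested genes of the large subunit had a median of 0.23 on the log2 scale with 42 higher, and the 31 of the small subunit had 0.20 with 28 higher. Of the 4 members on the X chromosome, Rpl10, which helps to form the peptidyl transferase centre, had a log2 fold change of 0.44 (edgeR, adjusted p = 0.135), and Rps4x had -0.01 (0.971).

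Rpl5 and Rpl11 bind the 5S ribosomal RNA, and the free complex holds back Mdm2, the ligase that marks p53 for degradation. Rpl5 was at 316, 312, 339 and 335 CPM in the control samples and at 303, 349, 485 and 286 CPM in the stress samples. Its control samples lay within a coefficient of variation of 4.21%, and the stress samples fell on both sides of them. The log2 fold change was 0.13 (edgeR, adjusted p = 0.668) for Rpl5 and 0.25 (0.336) for Rpl11.

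Of the 19 genes listed for Diamond-Blackfan anaemia, 18 had a higher estimate, as had 70 of all 77 tested members. Their median log2 fold change was 0.25, beside 0.23 for all members, so the list did not stand apart from the family. Rps29 was called higher and Rps27 lower, the latter with the copy apart, where 10.4% and 3.69% of all tested genes were called. Rps19, the gene most often mutated in the disease, was at 83.6, 94.5, 109 and 92.9 CPM in the control samples and at 88.6, 118, 156 and 91.9 CPM in the stress samples, with a log2 fold change of 0.25 (edgeR, adjusted p = 0.337). Rps14, whose loss underlies the anaemia of the 5q syndrome, went from 219 ± 23.9 to 309 ± 108 CPM (SD, n = 4) at a log2 fold change of 0.49 (edgeR, adjusted p = 0.129).

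The remaining members fixed for their role had small estimates. Rps6, the substrate of the S6 kinases, had a log2 fold change of 0.11 (edgeR, adjusted p = 0.708), and Rpsa, also known as the laminin receptor, had 0.07 (0.838). Rps27a, made as a fusion with ubiquitin, had 0.04 (0.909). Rpl13a, part of the interferon-gamma-activated inhibitor of translation in myeloid cells, had 0.13 (0.64), and Rpl22, which binds RNA and is needed for T cell development, had 0.13 (0.608). Rpl3, which lies at the peptidyl transferase centre, had -0.12 (0.66), the third lowest estimate of the 77.

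Variant forms of a ribosomal protein, coded by a second gene, were compared with the usual form within each sample, as log2 of the ratio of their counts, which does not depend on the scaling. Rpl3l, Rpl10l and Rpl39l, forms known from muscle or testis, had 0 to 6 counts per sample and were not tested, and neither was Rpl32l with 2 to 8 counts. Rps27l, a p53-induced relative of Rps27, was measured at 2.65 ± 0.183 and 3.36 ± 0.82 CPM (SD, n = 4). Its log2 ratio to Rps27 was higher in the stress group by 1.55 (2-sided exact permutation test, p = 0.143, adjusted over 4 pairs 0.457), and its ratio to the sum of Rps27 and Rps27rt by 0.02 (p = 1.0). The ratios of Rpl22l1 to Rpl22, Rpl7l1 to Rpl7 and Rpl36al to Rpl36a differed by -0.07, -0.26 and -0.10 (exact permutation tests, p = 0.514, 0.229 and 0.371). The smallest p that the 70 assignments of 8 samples allow is 0.0286.

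Per length, the levels of the members spanned a wide range. The level of a gene is given as TMM-scaled CPM per kb of its annotated transcript, averaged over the 8 samples. The highest levels were those of Rpl41 at 1147 CPM per kb, Rplp0 at 960, Rplp1 at 776 and Rpl13 at 666. The lowest were those of Rps27l at 6.02, Rpl21 at 25.6, Rps15a at 37.9 and Rps20 at 38.8 CPM per kb. For Rps15a and Rps20 the annotated transcripts of 5130 and 3706 bases are far longer than the coding lengths of 390 and 357 bases, which lowers the level per length. The median was 169.5 CPM per kb, 50 of the 77 members lay within 2-fold of it, and the ranks in the control and stress groups had a Spearman correlation of 0.96 across genes. Rpl41 and Rplp0 were at 791 ± 285 and 740 ± 170 CPM per kb in the control group, within their spread of each other, and Rps15a and Rps20 were in one order in the control group (32.3 ± 1.62 and 36.5 ± 3.89) and in the other in the stress group (43.4 ± 13.7 and 41.1 ± 10.9).

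**Figure D5:**
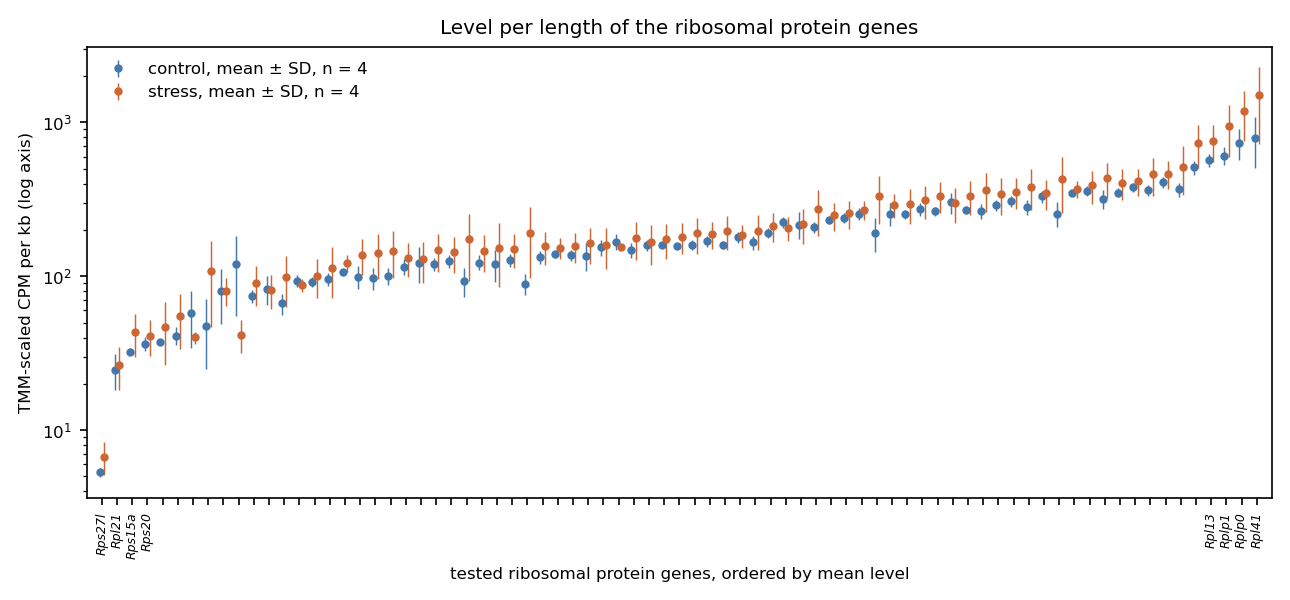
TMM-scaled CPM per kb of annotated transcript (log axis) of the 77 tested members, ordered by their mean over the 8 samples, as mean ± SD of the 4 control (blue) and 4 stress (orange) samples, with names for the 4 lowest and the 4 highest. Rps27l lies apart at 6.02 at the left, Rpl41 reaches 1147 at the right, and the stress bars are wider than the control bars for most members.

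The stress samples spread more than the control samples. The median coefficient of variation of the tested members was 9.89% for control and 26.0% for stress, against 11.4% and 19.2% over all tested genes. Among the control samples, Rps27 (53.5%), Rpl38 (48.1%), Rpl7a (40.1%) and Rpl30 (38.6%) varied most, and Rpl23 (3.78%) and Rpl5 (4.21%) least. Control replicate 4 was the highest control sample for 36 of the 77 members.

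The median log2 fold change was 0.34 for the 13 tested members with a TOP-like start, and the 44 tested members whose listed start was not TOP-like had 0.25. Among the 13, Rplp2 was called higher and Rps27 lower, where 10.4% and 3.69% of all tested genes were called. Rps27 is counted here with its copy apart, and with Rps27rt added its log2 fold change was 0.34. Rps6 with 9 pyrimidines and Rpl15 with 13 had log2 fold changes of 0.11 and 0.14.

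Ribosomal proteins and their relatives whose symbols lie outside the rule mostly had estimates above 0 as well. Of the 9 tested relatives, 8 had a higher estimate, with a median of 0.13. Fau, which codes for eS30, had a log2 fold change of 0.27 (edgeR, adjusted p = 0.269), and Rack1, the scaffold on the small subunit's head, had 0.16 (0.559).

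Other gene groups around the ribosome had lower medians than the members with TMM scaling, with total counts alone and relative to the summed members. Without stress replicate 3, the median of the members was 0.071 and that of the translation factors and other genes with TOP mRNAs 0.069. The medians of the other groups below were then -0.12 to -0.05. The values below are those with TMM scaling and all 8 samples, where edgeR called 10.4% of all tested genes higher and 3.69% lower. Of 21 translation factors and other genes with TOP mRNAs, 17 had a higher estimate (median 0.13) and 1, Vim, was called higher at a log2 fold change of 0.54 (edgeR, adjusted p = 0.011). Vim codes for the intermediate filament protein vimentin. Of 56 ribosome biogenesis genes, 20 had a higher and 36 a lower estimate (median -0.05), and 1 was called, Nvl, an ATPase of large subunit maturation, at -0.38 (edgeR, adjusted p = 0.04).

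Of 22 genes of mTORC1 and the control of TOP mRNAs, 10 had a higher and 12 a lower estimate, with a median of -0.07. With edgeR 2 were called higher and 1 lower, where 10.4% and 3.69% of all tested genes were called. DESeq2 called 2 higher and 2 lower, and the unadjusted p (edgeR) was below 0.05 for 2 higher and 5 lower genes. Eif4ebp1, the repressor of cap-dependent initiation that mTORC1 phosphorylates, had a log2 fold change of 0.99 (edgeR, adjusted p = 0.00105). Sesn2, an inhibitor of mTORC1 induced in amino acid shortage, had 0.60 (0.0258), and Rptor, the subunit that brings substrates to mTORC1, had -0.44 (0.0139). None of 14 genes of ribosome rescue and turnover was called by edgeR (median -0.16), where the unadjusted p was below 0.05 for 2 higher and 5 lower genes and DESeq2 called 1 lower. Of the 77 mitochondrial ribosomal protein genes, as many as the tested members, 45 had a higher estimate (median 0.06), and 1 was called, Mrpl33, at 0.57 (edgeR, adjusted p = 0.0402).

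Markers of several blood cell types moved with the groups on the TMM scale. With edgeR, 10.4% of all tested genes were called higher and 3.69% lower. All 12 B cell markers had a lower estimate and 8 were called, with summed levels of 1153 to 1412 CPM in the control samples and 781 to 1024 CPM in the stress samples. All 12 neutrophil markers (11 called; 204 to 404 against 650 to 953 CPM), all 9 classical monocyte markers (8 called; 308 to 417 against 677 to 1165 CPM) and all 12 platelet markers (12 called; 1564 to 2307 against 3477 to 4219 CPM) were higher. None of the 12 T cell markers was called by edgeR or DESeq2 or had an unadjusted p below 0.05, at 622 to 667 against 552 to 689 CPM, and 1 of 8 NK cell markers was called lower. Of the 11 tested erythroid markers, 10 had a higher estimate and 1 was called, with sums of 29225, 18562, 12929 and 36095 CPM in the control samples and 47447, 40917, 60537 and 28615 CPM in the stress samples. Stress replicate 3 had the highest erythroid sum. By flow cytometry, the paper reports more neutrophils and fewer monocytes, B cells, NK cells and T cells in the blood after stress. Those are cell numbers, while the values here are scaled RNA levels. The monocyte markers went the other way from the monocyte numbers, and the T cell markers did not show the fall in T cell numbers. No marker was at 0 in all samples, and the part of these cell types in the members' values was not tested.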

How the data were processed

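RNA of peripheral blood from 4 control and 4 stress mice was sequenced by the authors, who deposited raw counts per gene symbol, 1 column per sample, with no normalization. Per the submitters' processing notes, HISAT2, featureCounts and mm10 were used. Their versions, the annotation, the strand setting and the treatment of reads that match several places are not given in the sources used here, so that reads from a member and its copies, overlapping or antisense genes may be split in an unknown way.

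Genes with 10 or more counts in at least 4 samples were tested with edgeR 4.0.16 (R 4.3.3), with TMM scaling and robust quasi-likelihood F-tests, adjusted by Benjamini-Hochberg over 11718 genes. A gene was called at an adjusted p below 0.05, and the study's thresholds (log2 fold change above 1 in size, adjusted p below 0.01) were used beside it. A second fit used the summed counts of the tested members as library size. Ratios of counts (pseudocount 0.5) were compared with exact permutation tests. Group comparisons used all 8 samples with no covariate. The scripts were tested on simulated data. No libraries were duplicates. Precision rests on the 51 or more counts of each tested member per sample and on the spread of 4 samples.

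Coordinates, lengths and 50-base stretches came from GENCODE M21 (GRCm38), with 1 principal transcript per gene, and start sites from RefSeq (GRCm38.p6). Named genes were the called members, the 4 with the highest and the 4 with the lowest level per length, members fixed for their role, and up to 4 called genes of each other list in each direction. Rps12, Rpl37a, Rpl7a, Rpl15, Rpl30, Rpl23, Rpl34, Rpl37, Fau and Rack1 were named after their values were seen. The members and lists were chosen with earlier results of these data known. Alternatives were other normalizations, DESeq2 1.42.0, limma-voom (limma 3.58.1), other filters, a replicate block, leaving out each sample and, added later, summed copies. Protein sequences were not used here, and some called or counted genes are not reported here by name.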

Additional observations from a re-analysis of the deposited data

Results flagged for a closer look

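Of 68 sets of 4 values searched for a single sample far from the rest, 4 had one, where chance gives about 1 in 20. Rplp2 stood at 255 CPM in control replicate 4, against 156 to 169 CPM in the other control samples. The log2 ratio of Rps27l to Rps27 was -1.84 in control replicate 4, against -4.42 to -4.01 in the other control samples, in the sample in which Rps27 held 12% of the counts of Rps27 and Rps27rt. The log2 ratio of Rpl36al to Rpl36a was -1.13 in control replicate 4, against -0.82 to -0.78. The share of Rpl37 in the counts of Rpl37 and Rpl37rt was 91.7% in stress replicate 4, against 93.0% to 93.2% in the other stress samples. These differences between single samples were not tested further.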

How the results depend on the processing

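The calls of the members depended on the processing, and the cause was not tested except where the alternative itself shows it. The share of all genes called is not reported here for limma-voom, no filter, upper quartile scaling and the replicate block. It is not reported for the fits without single samples or for DESeq2 with the summed members as library size either. The counts of members in these fits therefore describe the processing and are no result about the members. Of the main 3 members called higher and 1 called lower (edgeR, adjusted p below 0.05), total counts alone left 0 higher and 34 lower, the summed members as library size 0 higher, DESeq2 gave 7 higher, limma-voom 1 higher and 0 lower, no filter 1 higher and 0 lower, and upper quartile scaling 0 lower. Adding Rps27rt, Rpl34-ps1 and Rpl37rt to Rps27, Rpl34 and Rpl37 left 0 lower. Leaving out single samples gave 0 to 10 higher, the most without stress replicate 4, 6 without control replicate 4 and 0 without control replicate 2, control replicate 3 or stress replicate 2. It gave 0 to 1 lower, where the lower member without control replicate 1 was Rpl7a and that without control replicate 4 was Rps27. At the study's thresholds, where the main count was 0, DESeq2 called 1 higher (Rps29), total counts 2 lower (Rps27 and Rpl7a), and leaving out single samples gave 0 to 1 lower (Rps27 without control replicate 4). Relative to the summed members, DESeq2 gave 1 higher (Rps29) and 0 lower, no filter 0 lower, summed copies 0 lower, and leaving out single samples 0 to 1 higher and 0 to 1 lower.

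The replicate numbers did not pair the samples: same-numbered samples had correlations of their deviations of 0.06, 0.00044, -0.04 and -0.16 over all genes. Over the members these correlations were all negative, at -0.21, -0.21, -0.41 and -0.56 for replicates 1 to 4. With the replicate block 0 members were called higher and 0 lower, and the median log2 fold change was 0.19.

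The median log2 fold change of the members, 0.23, reversed with total counts (-0.63) and ran from 0.07 to 0.33 without single samples. With the summed members it was -0.085, but there the members are their own denominator. That median therefore cannot show the direction of the family. With total counts the estimates reversed of Rplp2 (-0.051), Rpl39 (-0.0067), Rps12 (-0.13), Rplp0 (-0.17), Rplp1 (-0.25), Rpl5 (-0.74), Rpl11 (-0.60), Rps6 (-0.77), Rpl22 (-0.75), Rps19 (-0.64), Rps14 (-0.39), Rpsa (-0.81), Rps27a (-0.81), Rpl13a (-0.73), Rpl10 (-0.41) and Rps27l (-0.51). With the summed members, Rpl5 (-0.19), Rpl11 (-0.069), Rps6 (-0.20), Rpl22 (-0.18), Rps19 (-0.068), Rpsa (-0.24), Rps27a (-0.26) and Rpl13a (-0.17) were below 0. Such values are relative to the family and do not give a gene's own direction. Without stress replicate 3, Rpl5 (-0.041), Rps6 (-0.029), Rpl22 (-0.061), Rpsa (-0.063) and Rps27a (-0.092) reversed, and Rps27a also without control replicate 2 (-0.012) and with the block (-0.0034). The highest values without single samples were 0.22 for Rps6, 0.17 for Rpsa and 0.25 for Rps27a. Rps4x turned positive with RLE size factors (0.00068), limma-voom (0.017) and without single samples (0.0046 to 0.11). Rps27 with its copy added was at 0.34, at 0.29 with the block, and at 0.30, 0.34, 0.37 and 0.37 without control replicates 1 to 4 and 0.49, 0.32, 0.15 and 0.45 without stress replicates 1 to 4. The correlation of the change with length fell in size from -0.46 to -0.17 with transcript length. The 4 ratios of paralogs kept their direction under the alternatives run on them, and none passed. For these ratios the replicates were paired by a sign-flip test, whose smallest possible p of 0.125 could not show a call. The edgeR fit with the replicate block has no such limit, and Rps29 had an adjusted p of 0.0926 in it.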
